A study of Homo sapiens with 12 samples.

Results

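The genes described here are 10 genes of TGF-beta signalling, picked by symbol from the 58288 genes listed for FaDu cells: the ligands TGFB1 and TGFB2, the latency protein LTBP1, the receptors TGFBR1 and TGFBR2, the pseudoreceptor BAMBI, the transcription factor SMAD3, the inhibitors SMAD7 and SKIL, and the target TGFBI. Each symbol matched a single row, and all 10 passed the filter on low values. FaDu is an established human head and neck squamous cell carcinoma (HNSCC) line, and RNA-Seq was performed in cells with STING (STING WT) and in STING KO cells. Each genotype was unirradiated (0Gy) or had received 4 daily fractions of 2 Gy (RT), which gave 4 groups of 3 libraries and 12 libraries in all. According to the study's methods, both genotypes were made with lentiviral Cas9 and puromycin selection, the WT cells carrying a non-targeting guide and the KO cells a STING guide. A single guide of each kind was used, so the effect of STING loss and that of the guide cannot be told apart. Nothing in the labels says that the 3 libraries of a group came from separate cultures, and p-values measure the spread between these libraries.

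Gene levels were deposited as TPM, a scale of transcript abundance that corrects for gene length and library size but keeps no read depth, so how many reads a value rests on is not known. Differences are given as log2 fold changes of TPM + 1, which understates the change of genes with low levels, and a gene was called when the adjusted p of the fit across 15973 genes (limma, Benjamini-Hochberg) was under 0.05. TMEM173, the gene of STING, lay between 21.1 and 26.1 TPM in the 6 WT libraries and between 5.18 and 7.41 TPM in the 6 KO libraries, and the genotypes did not overlap in either radiation arm (two-sided exact permutation test p = 0.1 in each, the smallest that 3 against 3 libraries can give). All 9 squamous epithelial markers were detected, with a summed level of 7339 to 10140 TPM. None of the 6 fibroblast markers passed the filter, their highest single value was 0.115 TPM, and LUM was at 0 in every library. Of the 4 endothelial markers CDH5 and VWF passed and PECAM1 and KDR did not, and their summed level was 11.5 to 15.9 TPM in the unirradiated and 18.3 to 23.9 TPM in the irradiated libraries. Of the 4 leukocyte markers CD14 and ITGAM passed and PTPRC and CD3E did not, with sums of 3.58 to 3.99 TPM in unirradiated WT, 4.24 to 5.49 in unirradiated KO, 3.51 to 4.08 in irradiated WT and 4.08 to 4.62 in irradiated KO libraries. CD14 was called higher in unirradiated KO cells (log2 fold change 0.40, adjusted p = 0.043), while PTPRC and CD3E were near 0. The part of these markers in the results was not tested.

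TGF-beta is secreted in a latent complex, held in the matrix by latent TGF-beta binding proteins such as LTBP1, and released by integrins and proteases. The active ligand joins the type II receptor TGFBR2 to the type I receptor TGFBR1, which phosphorylates SMAD2 and SMAD3. These enter the nucleus with SMAD4 and act on target genes, among them the pathway's own inhibitors SMAD7 and SKIL. In squamous epithelium the pathway is known for arresting growth, and in carcinoma cells for matrix production and mesenchymal features.

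TGFB1, the main ligand of the family in epithelial cells, was called in every comparison of genotype or radiation. Its level was lower in STING KO than in STING WT cells, with and without radiation, and higher after radiation than before in both genotypes. The call for KO against WT without radiation held in 15 of 20 alternative settings of the fit, and the other calls in 20 of 20. The comparisons share groups of libraries, so these calls are not independent of each other. No other of the 10 genes passed the threshold in any comparison.

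The TGFB1 gene (ENSG00000105329.9) lies on the minus strand of chromosome 19 from 41301587 to 41353911 (GRCh38, GENCODE 29). Its promoter window is shown because TGFB1 is the gene on which the results turn. The RefSeq window on GRCh38.p14, chr19:41353873-41354172 on the minus strand, covers 250 bases before and 50 after the transcription start. The capitals mark GC boxes, the letters GGGCGG or their reverse complement CCGCCC.
TGFB1 promoter: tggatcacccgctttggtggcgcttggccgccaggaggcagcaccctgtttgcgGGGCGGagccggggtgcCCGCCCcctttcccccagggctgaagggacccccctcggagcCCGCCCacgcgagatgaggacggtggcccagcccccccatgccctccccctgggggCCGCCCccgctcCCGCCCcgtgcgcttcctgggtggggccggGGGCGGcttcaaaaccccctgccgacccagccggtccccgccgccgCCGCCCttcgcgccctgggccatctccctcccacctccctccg
Of all 35116 promoter windows of the same length, 45% held a GC box on either strand, as did 10 of the 26 windows of the 10 genes (38.5%), in 7 genes (BAMBI, SKIL, SMAD3, TGFB1, TGFBI, TGFBR1 and TGFBR2). The letters CAGAC, which lie in SMAD binding elements, were present on either strand in 45.3% of all windows and in 15 of the 26 (57.7%), in 7 genes, but not in the window of TGFB1. The full SMAD palindrome GTCTAGAC stood in 0.202% of all windows and in none of the 26 windows of the 10 genes. The AP-1 motif TGANTCA was present in 7.71% of all windows and in a window of SMAD3 and of TGFBR2. A match is a description of these letters, and no match says only that they are not in this window.

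**Figure D1:**
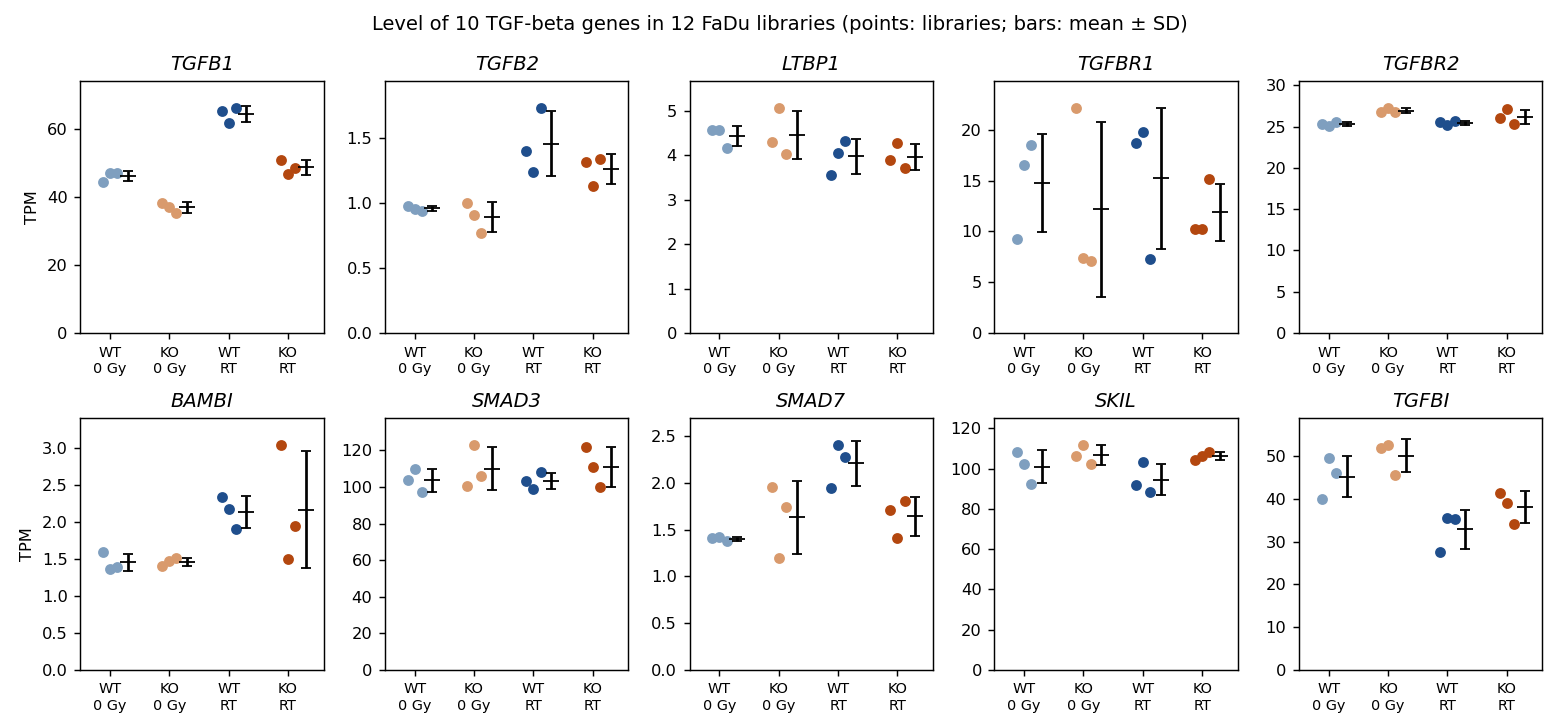
Level in TPM (vertical axis, from 0) of each of the 10 genes in the 12 libraries, by genotype and radiation. Points are libraries and bars are the mean ± SD of 3. TGFB1 lies at 35.2 to 38.3 TPM in unirradiated KO and at 61.6 to 66.1 TPM in irradiated WT cells, while TGFBR1 ranges from 7.10 to 22.1 TPM with no order by group.

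In unirradiated cells TGFB1 stood at 44.5, 47.2 and 47.0 TPM in the 3 WT libraries and at 38.3, 37.2 and 35.2 TPM in the 3 KO libraries. All KO libraries were below all WT libraries, and the KO mean was lower by 20.1% (log2 fold change -0.32, SE 0.054, adjusted p = 0.013). Of all genes tested 1.73% were called in this comparison (0.463% higher and 1.26% lower in KO), and TGFB1 was 1 of 10 here. Libraries of KO and WT did not overlap for 2 of the 10, TGFB1 and TGFBR2, and for 20.6% of all genes (8.51% higher and 12.1% lower). The call was lost when the fit held only these 6 libraries (adjusted p = 0.0951) and when any of 4 libraries was left out, namely WT 2 (0.0598), WT 3 (0.0546), KO 2 (0.0519) and KO 3 (0.065).

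In irradiated cells TGFB1 stood at 65.2, 61.6 and 66.1 TPM in WT and at 51.0, 46.6 and 48.6 TPM in KO. The libraries again did not overlap, with a KO mean lower by 24.2% (log2 fold change -0.39, SE 0.054, adjusted p = 0.0026). Of all genes tested 3.59% were called (0.927% higher and 2.66% lower in KO), against 1 of the 10. Libraries did not overlap for 3 of the 10, TGFB1 and SMAD7 (lower, as 14.5% of all genes) and SKIL (higher, as 9.62%), and for 24.1% of all genes in either direction. This call held in 20 of 20 alternative settings, with a highest adjusted p of 0.0357.

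Radiation raised TGFB1 in both genotypes. In WT the mean went from 46.2 ± 1.48 to 64.3 ± 2.39 TPM (SD, n = 3), a log2 fold change of 0.47 (adjusted p = 0.0014), where 3.74% of all genes (2.24% higher and 1.50% lower) and 1 of the 10 were called. In KO it went from 36.9 ± 1.60 to 48.7 ± 2.18 TPM (SD, n = 3), a log2 fold change of 0.39 (adjusted p = 0.0038), where 3.69% of all genes (2.00% higher and 1.70% lower) and 1 of the 10 were called. The irradiated and unirradiated libraries did not overlap for 5 of the 10 in WT, beside 24.8% of all genes, and for 3 of the 10 in KO, beside 24.3%. Both calls held in 20 of 20 settings, with highest adjusted p of 0.0254 in WT and 0.0472 in KO. The radiation effect in KO minus that in WT was -0.077 (95% interval -0.25 to 0.093, adjusted p = 0.90), so a difference between the genotypes was not shown. Across all genes 0.0188% were called for that difference, and none of the 10. By level, the irradiated KO libraries (46.6 to 51.0 TPM) overlapped the unirradiated WT libraries (44.5 to 47.2 TPM), a pair of groups that was not tested.

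TGFB1 shares 215 of its 3238 exonic bases (6.64%) with HNRNPUL1 on the opposite strand, and the strand setting of the counting is not given in the sources used here. HNRNPUL1 had a mean of 618 TPM and was not called in any comparison, with log2 fold changes of 0.028 and 0.068 for KO against WT and -0.056 and -0.016 for radiation (adjusted p of at least 0.615). The part of shared reads in the TGFB1 level was not tested. In bulk RNA, fewer cells carrying a transcript and less of it per cell cannot be told apart.

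TGFB2, a second ligand, had the lowest mean level of the 10. It stood at 0.979, 0.956 and 0.936 TPM in unirradiated WT, 0.999, 0.908 and 0.768 in unirradiated KO, 1.40, 1.24 and 1.73 in irradiated WT, and 1.31, 1.13 and 1.34 in irradiated KO libraries. The irradiated libraries were above the unirradiated ones in both genotypes, but the log2 fold changes of 0.32 in WT (adjusted p = 0.15) and 0.26 in KO (adjusted p = 0.24) did not pass. Libraries did not overlap in the higher direction for 14.7% of all genes in WT and 13.7% in KO. TGFB2 shares 26.6% of its exonic bases with TGFB2-OT1 on the same strand, which had a mean of 0.206 TPM. TGFB3, the third ligand and outside the 10, had means of 3.28 TPM in unirradiated WT and 3.32 TPM in KO, and of 4.48 and 3.78 TPM after radiation, none of which passed. INHBA, an activin subunit, was below the filter and was not tested, with means of 0.237 and 0.184 TPM before and 0.779 and 0.523 TPM after radiation in WT and KO.

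LTBP1, which tethers the latent complex, was at 3.56 to 5.07 TPM over the 12 libraries. The groups overlapped in every comparison, and its log2 fold changes were 0.0045 and -0.0020 for KO against WT and -0.13 and -0.14 for radiation in WT and KO. The related LTBP3 was at a mean of 141.7 TPM in unirradiated WT and 168.7 TPM in irradiated WT cells. These libraries did not overlap, as for 14.7% of all genes in that direction, but the log2 fold change of 0.25 did not pass (adjusted p = 0.080). In KO the means of LTBP3 were 129.2 and 142.1 TPM. Its KO libraries lay below the WT libraries without and with radiation, as for 12.1% and 14.5% of all genes. Those log2 fold changes of -0.13 and -0.24 did not pass either (adjusted p = 0.42 and 0.086). ITGB6, a subunit of the integrin that releases TGF-beta in epithelium, had group means between 16.7 and 18.5 TPM and was not called.

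Neither receptor was called, and their spread between libraries differed widely. TGFBR2, the ligand-binding type II receptor, was the steadiest of the 10. It stood at 25.3, 25.0 and 25.5 TPM in unirradiated WT and at 26.8, 27.2 and 26.7 TPM in unirradiated KO libraries, which did not overlap, with a log2 fold change of 0.086 (95% interval -0.012 to 0.18, adjusted p = 0.42). After radiation WT lay between 25.1 and 25.6 TPM and KO between 25.3 and 27.1 TPM, which overlapped. The SD of TGFBR2 within groups was 0.026 on the log2 scale, at percentile 0.3 of 2567 genes of like level.

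TGFBR1, the signalling type I receptor, had the widest spread. Its libraries stood at 9.27, 16.5 and 18.5 TPM in unirradiated WT, 22.1, 7.36 and 7.10 in unirradiated KO, 18.7, 19.8 and 7.24 in irradiated WT, and 10.2, 10.2 and 15.1 in irradiated KO. High and low libraries occurred in every group, and the SD within groups was 0.64 on the log2 scale, at percentile 98.2 of 2372 genes of like level. With this spread the interval of the difference between KO and WT ran from -1.42 to 0.64 without and from -1.27 to 0.79 with radiation, which leaves room for a change larger than that of TGFB1 in either direction. TGFBR3, a co-receptor, was higher in KO by 0.37 without and 0.41 with radiation on the log2 scale, with libraries that did not overlap, but it did not pass (adjusted p = 0.20 and 0.11). Of the 11 tested receptors and co-receptors in a wider list of the pathway, none was called in any of the 5 comparisons. At an unadjusted p under 0.05 were 2 of them for KO against WT without and 5 with radiation, beside 14.3% and 17.9% of all genes. For radiation 1 was under it in WT and 1 in KO, beside 18.2% and 18.1%. None was under it for the difference between genotypes, beside 6.61%. No excess among the receptors was tested.

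BAMBI, a receptor-like protein that lacks the kinase and blocks signalling, stood at 1.59, 1.37 and 1.39 TPM in unirradiated and 2.33, 2.17 and 1.90 TPM in irradiated WT libraries. These did not overlap, and the log2 fold change of 0.35 did not pass (adjusted p = 0.26). In KO it went from 1.40, 1.46 and 1.51 to 3.04, 1.50 and 1.95 TPM, which overlapped. Among the irradiated KO libraries the first stood at 3.04 TPM, above every other value of this gene.

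**Figure D2:**
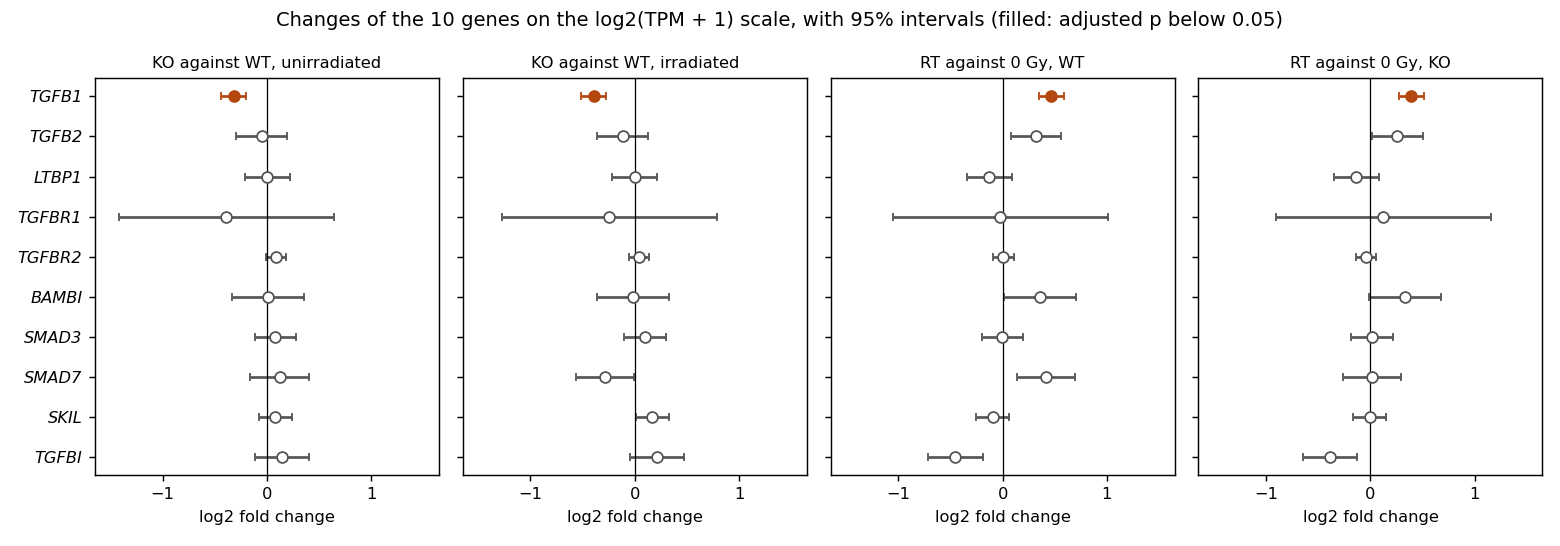
Log2 fold change of TPM + 1 (horizontal axis) of the 10 genes in 4 comparisons, with 95% intervals from limma. Filled points have an adjusted p under 0.05, which holds for TGFB1 in each panel and for no other gene. The intervals of TGFBR1 are the widest and reach from -1.42 to 1.15.

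SMAD3, the receptor-activated transcription factor, had the highest mean level of the 10, 107 TPM over the 12 libraries. It lay between 97.4 and 123.1 TPM with overlap between groups in every comparison, and its largest log2 fold change was 0.097 (KO against WT, irradiated, 95% interval -0.10 to 0.30). SMAD2, its partner, had group means between 31.7 and 39.1 TPM and was not called.

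SMAD4, the common partner that the receptor-activated SMADs bind, was listed at 0 TPM in all 12 libraries. FaDu is known as a line that lacks SMAD4. The gene (ENSG00000141646.13) lies on the plus strand of chromosome 18 from 51028394 to 51085045. It was 1 of 7 protein-coding genes in a row (MAPK4, MRO, ME2, ELAC1, AC091551.1, SMAD4 and MEX3C) at 0 in every library, over 658.2 kilobases from 50560078 to 51218304. All 12 genes of any type in that stretch were at 0, and AC091551.1 shares 967 exonic bases with SMAD4 on the same strand. The neighbours were chosen after their values were seen. On one side SKA1 stood at 10.0 to 17.5 TPM, and on the other DCC at 0.0074 to 0.060 TPM and MBD2 at 36.2 to 41.2 TPM. Across the genome 2960 of 19806 protein-coding genes (14.9%) were at 0 in every library, as were 25770 of the 58288 listed genes of any type. None of 10 housekeeping genes was at 0, the lowest being 19.9 TPM. SMAD7 lies on the same chromosome from 48919853 to 48952052, outside the stretch, and was detected in every library.

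**Figure D3:**
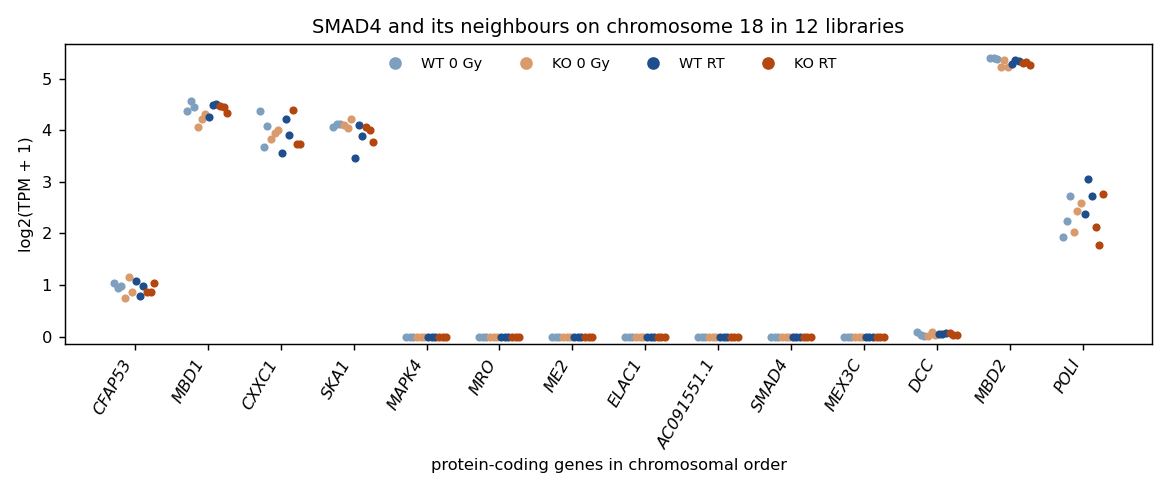
Level as log2(TPM + 1) (vertical axis) of SMAD4 and its protein-coding neighbours in chromosomal order, with a point for each of the 12 libraries coloured by group. The 7 genes from MAPK4 to MEX3C are at 0 in every library, between SKA1 and DCC.

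SMAD7, an inhibitor that SMAD signalling itself induces, had the largest difference in radiation effect between the genotypes among the 10, which did not pass. Without radiation it stood at 1.41, 1.42 and 1.38 TPM in WT and at 1.95, 1.20 and 1.74 TPM in KO. After radiation it stood at 1.95, 2.41 and 2.28 TPM in WT and at 1.71, 1.41 and 1.81 TPM in KO. The irradiated WT libraries were thus above both the unirradiated WT and the irradiated KO libraries. The log2 fold change with radiation was 0.42 in WT (adjusted p = 0.11) and 0.015 in KO. The difference between these was -0.40 (95% interval -0.80 to -0.0079, unadjusted p = 0.046, adjusted p = 0.75), which did not pass, and it was the 1 of the 10 genes with an unadjusted p under 0.05 there, as were 1056 of the 15973 genes tested.

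SKIL, a repressor that binds SMADs, was at a mean of 102.2 TPM and overlapped SMAD3 in level. In irradiated cells it stood at 92.0, 103.3 and 88.6 TPM in WT and at 104.3, 106.5 and 108.4 TPM in KO. The KO libraries were above the WT libraries, but the log2 fold change of 0.17 did not pass (adjusted p = 0.24). In the other comparisons its groups overlapped. Its relative SKI had group means between 28.8 and 31.3 TPM, and the corepressor TGIF1 was at 58.0 TPM in unirradiated WT and 45.8 TPM in unirradiated KO cells without passing (adjusted p = 0.29). The ubiquitin ligases SMURF1 and SMURF2, which turn over SMADs and receptors, were not called. PMEPA1, a target that feeds back on SMAD2 and SMAD3, was higher in irradiated KO cells, at 32.2, 31.9 and 29.0 TPM against 25.7, 25.6 and 25.0 TPM in WT (log2 fold change 0.27, adjusted p = 0.038). This call held in 9 of 20 settings. Omitting single libraries ended it in 8 of 12 cases, namely unirradiated KO 1 to 3 and irradiated WT 1 to 3 and irradiated KO 1 and 2, with a highest adjusted p of 0.118.

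TGFBI, a secreted matrix protein induced by TGF-beta, was lower after radiation in both genotypes without passing. In WT it stood at 40.0, 49.7 and 46.0 TPM before and at 27.7, 35.6 and 35.4 TPM after radiation. In KO it stood at 52.0, 52.7 and 45.7 TPM before and at 41.3, 39.1 and 34.1 TPM after. The irradiated libraries were below the unirradiated ones in both genotypes, as were 10.1% of all genes in WT and 10.6% in KO. The log2 fold changes were -0.45 (adjusted p = 0.066) and -0.39 (adjusted p = 0.11). TGFBI and TGFB1 thus had opposite signs of change with radiation, of which the TGFB1 change passed.

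Over the 10 genes, the median log2 fold change was 0.044 for KO against WT without and -0.0076 with radiation, beside -0.021 and -0.017 for all genes tested. With radiation it was 0.0023 in WT and 0.014 in KO, beside 0.017 and 0.019 for all genes. By level over the 12 libraries the order ran from SMAD3 and SKIL through TGFB1 (49.0 TPM), TGFBI (41.6 TPM), TGFBR2, TGFBR1 and LTBP1 (4.21 TPM) to BAMBI (1.80 TPM), SMAD7 (1.72 TPM) and TGFB2 (1.14 TPM). Neighbours in that order overlapped in the pairs SMAD3 and SKIL, TGFB1 and TGFBI, BAMBI and SMAD7, and SMAD7 and TGFB2, and did not in the others. Within groups the order of the means turned for TGFB1 and TGFBI in unirradiated KO cells, where every TGFBI library (45.7 to 52.7 TPM) lay above every TGFB1 library (35.2 to 38.3 TPM), and for BAMBI and SMAD7 in unirradiated KO and irradiated WT cells.

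Outside the 10, a wider list of 85 genes of the pathway was read from the same fit, of which 72 passed the filter. These were called mostly among 26 tested targets, genes known to respond to TGF-beta in other cells, though many of them also answer to other signals. SMAD4 was listed at 0 TPM in every library, and whether TGF-beta acted on these targets here was not tested. In unirradiated cells 4 of the 26 fell in KO and none rose, with a median of -0.086. That count was 2 without unirradiated WT 1, KO 2 or KO 3, and 1 with only the 6 libraries compared. In irradiated cells 6 fell and none rose, with a median of -0.14. Here 1 to 3 fell when any one of the 6 libraries compared was omitted (1 without irradiated WT 1 or irradiated KO 3), as did 2 or 3 without unirradiated WT 3, KO 2 or KO 3, and 2 with only those 6 libraries. With radiation 12 rose and 1 fell in WT (median 0.35), and 8 rose and 2 fell in KO (median 0.23). The counts and medians pool targets of unlike expected direction, since not every target is induced by TGF-beta, which represses ID1, for example, in epithelium. In WT 6 or 7 rose when any one of the 6 libraries compared was omitted, and 6 with only these 6, whereas in KO the count was 6 to 9 over the fits without one library and 5 with only the 6 compared. None was called for the difference between genotypes, with 1 at an unadjusted p under 0.05. The share called in that direction over all genes was 1.26% and 2.66% for lower in KO, and 2.24% and 2.00% for higher with radiation in WT and KO. The list was chosen with earlier results of these data known. Setting its counts beside these shares therefore cannot show an excess among the targets, and none was tested.

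The targets that were lower in unirradiated KO cells were FN1, CDKN1A, ACTA2 and TAGLN. CDKN1A, a cyclin-dependent kinase inhibitor that p53 also induces, stood at 26.8, 28.9 and 23.5 TPM in WT and at 16.3, 15.7 and 15.4 TPM in KO (log2 fold change -0.70). Its call held in every alternative setting, the only one of the 4 calls to do so, while the direction of all 4 was the same in every setting. FN1, fibronectin, stood at 12.4, 9.50 and 8.92 TPM in WT and at 6.41, 4.36 and 5.25 TPM in KO (log2 fold change -0.83). Its call was lost in 4 of 20 settings, among them without WT 1 (0.0564), KO 2 (0.0732) or KO 3 (0.0678). ACTA2, smooth muscle actin, stood at 6.71, 7.05 and 8.10 TPM in WT and at 4.16, 4.90 and 4.67 TPM in KO (log2 fold change -0.57). Its call held in 10 of 20 settings and was lost without any one of the 6 libraries compared (highest adjusted p of 0.105). In these 3 genes the KO libraries all lay under the WT libraries.

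In irradiated cells CDKN1A, IL11 and TIMP3 had the largest falls in KO among the genes called. CDKN1A went from 49.0, 46.1 and 42.6 TPM in WT to 27.6, 23.4 and 22.6 TPM in KO (log2 fold change -0.88), a call that held in every setting. IL11, a cytokine, had a log2 fold change of -0.77 and was called in 6 of 19 settings, the call being lost without any one of the 6 libraries compared, among others (highest adjusted p of 0.129). TIMP3, a metalloproteinase inhibitor, stood at 6.76, 6.89 and 5.73 TPM in WT and at 4.46, 3.62 and 4.44 TPM in KO (log2 fold change -0.53). Its call held in 2 of 19 settings and was lost when any library but 1 of the 12, unirradiated WT 2, was omitted (highest adjusted p of 0.147). In CDKN1A too the irradiated KO libraries overlapped the unirradiated WT libraries in level, at 22.6 to 27.6 against 23.5 to 28.9 TPM, a pair of groups that was not tested.

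**Figure D4:**
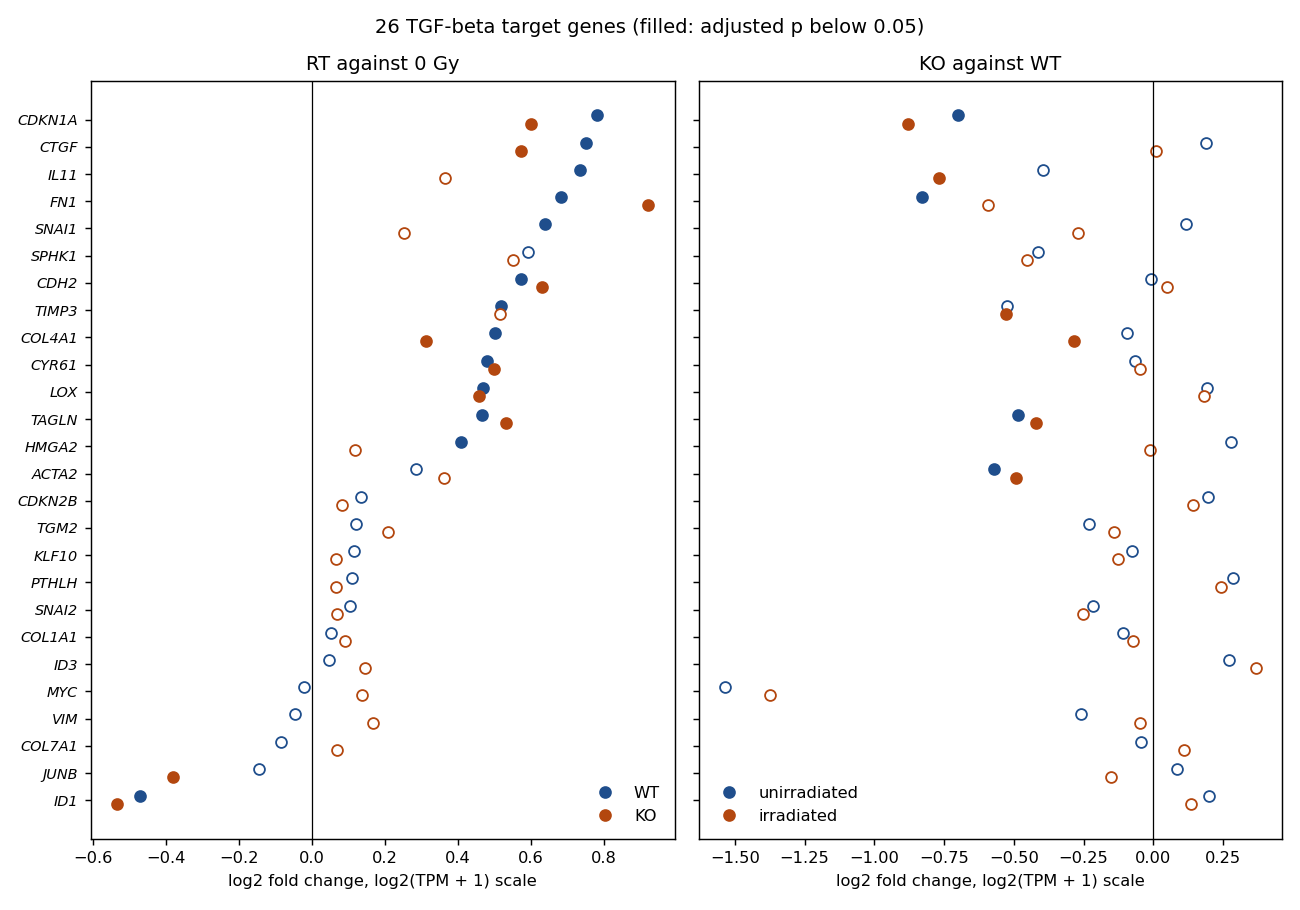
Log2 fold change of TPM + 1 (horizontal axis) of 26 targets, with radiation (left, by genotype) and for KO against WT (right, by radiation). Filled points have an adjusted p under 0.05. With radiation 12 targets in WT and 8 in KO are filled to the right of 0, and for KO against WT 4 and 6 are filled, all to the left.

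With radiation the largest rises of the wider list in WT were those of FST, CDKN1A and CTGF. FST, follistatin, which binds activins, rose from 10.6, 13.1 and 14.0 to 27.3, 27.2 and 23.3 TPM (log2 fold change 0.99). That call held in 11 of 20 settings and was lost without any one of the 6 libraries compared (adjusted p of 0.0586 to 0.106), without unirradiated KO 3 (0.0514), with no filter and with the replicate block. CTGF, a matrix-associated growth factor that YAP also induces, rose from 6.12, 6.19 and 5.70 to 10.5, 10.1 and 11.7 TPM (log2 fold change 0.75). In KO the largest rises were those of FN1 (0.92), LTBP2, a matrix latency-family protein (0.63), and CDH2, N-cadherin (0.63). CDKN1A (0.60) and CTGF (0.57) were called higher in KO too, while FST (0.30, adjusted p = 0.52) was not. FN1 (0.68), LTBP2 (0.56) and CDH2 (0.57) were called higher in WT too, the FN1 call there holding in 12 of 20 settings. For none of these genes did the difference between the genotypes pass. THBS1, thrombospondin, which can activate latent TGF-beta, rose by 0.43 in WT and 0.28 in KO on the log2 scale.

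ID1, which TGF-beta represses and BMP signalling induces in epithelium, was the target that fell most. It fell from 325.2, 305.9 and 300.1 to 230.3, 219.4 and 221.2 TPM with radiation in WT and from 347.3, 359.2 and 362.0 to 256.6, 255.2 and 226.8 TPM in KO (log2 fold changes -0.47 and -0.53). ITGB8, an integrin subunit that binds latent TGF-beta, was the other gene that fell in WT (-0.38), a call lost without any one of the compared libraries except unirradiated WT 3 (highest adjusted p of 0.0759). In KO the transcription factor JUNB (-0.38) and the BMP effector SMAD1 (-0.35) followed ID1. The SMAD1 call was lost without any one of the compared libraries except irradiated KO 3 (highest adjusted p of 0.106). Before radiation SMAD1 stood at 28.8, 30.0 and 27.5 TPM in KO and at 22.2, 22.3 and 23.1 TPM in WT. That log2 fold change of 0.34 did not pass (adjusted p = 0.058). After radiation SMAD1 stood at 21.4, 21.6 and 23.9 TPM in KO. MYC, chosen after its values were seen, had the largest difference between genotypes in the list without passing (-1.54 and -1.37), and its libraries lay either at 5.22 to 7.83 TPM or at 92.7 to 130.6 TPM, with both kinds in every group.

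The 5 genes with a profile most like that of TGFB1 over the 12 libraries, by the root mean square difference of centred log2(TPM + 1), were COL5A3 (0.0752), AREG (0.0814), ARL14 (0.0905), TAGLN (0.0914) and TRABD2A (0.0933). AREG, amphiregulin, an EGF receptor ligand, had means of 116.9 and 90.8 TPM in unirradiated WT and KO and of 161.9 and 124.1 TPM after radiation. TAGLN, transgelin, an actin-binding protein of the target list, had means of 28.9 and 20.3 TPM before and 40.4 and 29.8 TPM after radiation. TRABD2A had means of 11.9 and 8.62 TPM before and 14.8 and 10.8 TPM after. COL5A3, a collagen chain, was at 0.944 and 0.592 TPM before and 1.71 and 1.01 TPM after, and ARL14, a small GTPase, at 12.3 and 10.5 TPM before and 16.9 and 12.4 TPM after. These genes were chosen for that likeness, so their shared directions are no result. COL5A3 and ARL14 did not pass for KO against WT without radiation (adjusted p = 0.226 and 0.261) or for radiation in KO (0.102 and 0.165). At the low level of COL5A3 the addition of 1 TPM shrinks its changes, so its place as the most alike depends on that scale.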

How the data were processed

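RNA-Seq was performed on polyadenylated RNA from 12 libraries. The authors deposited a single table of TPM per gene, and the submitters' processing notes name HISAT2, StringTie, DESeq2 and build hg38. Versions, annotation and strand setting are not given in the sources used here. Columns were matched to samples by cell name, radiation and replicate number, while the sample titles give the genotype only as WT or KO. The cell name read as a non-targeting guide was taken as WT and the remaining name as STING KO. The labels do not state that reading. Since TPM keeps no read depth, the spread between libraries was the only measure of error.

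From these values log2(TPM + 1) was computed for the 15973 genes that reached 1 TPM in 3 libraries or more. The 4 group means were estimated in limma 3.58.1 (R 4.3.3) with a trended eBayes prior and 8 residual degrees of freedom, for 4 comparisons and the difference between the radiation effects. P-values were two-sided and adjusted by the Benjamini-Hochberg method over all genes tested, with a threshold of 0.05. The authors used DESeq2, a count method, which TPM values cannot enter. The code was tested on simulated data. Identifiers were matched to GENCODE 29 (57980 of 58288), and promoters were taken from RefSeq, where all 10 genes had a window. No 2 libraries were identical, and no sequencing batch is given in the labels.

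The members and lists were chosen with earlier results of these data known. Named were the 10 genes, TMEM173, 14 other pathway genes, the 3 largest called changes of the wider list in each direction and comparison, and the 5 genes most like TGFB1. Alternatives were the replicate number as a block, an untrended prior, quantile normalization, size factors from medians of ratios, no filter or one on a mean of 5 TPM, a pseudocount of 0.1, only the 6 libraries compared, and every library omitted once. Of the lists, 2 genes are not reported here, and the counts leave them out.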

Additional observations from a re-analysis of the deposited data

How the results depend on the processing

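Of 970 values of the 10 genes under the alternatives, 965 kept their side of the threshold, 5 lost the call, all for TGFB1 in unirradiated KO against WT, and none was newly called. In 61 of them the sign changed, all for values that did not pass. In that comparison the fit to only the 6 libraries called 0 of the 10 genes, and leaving out a library gave 0 to 1. The fit to only the 6 libraries called 103 genes for KO against WT without radiation, 252 with radiation, 166 for radiation in WT and 195 in KO, beside 276, 573, 597 and 590, fewer residual degrees of freedom being part of that fit's construction. Leaving out a library gave 172 to 292, 313 to 542, 242 to 526 and 268 to 553 genes, and 1 to 9 beside 3 for the difference between genotypes, where no filter gave 7, eBayes without trend 1 and the replicate block 1. Of the 10 genes, 1 stayed called in the other 3 comparisons and 0 for the difference. Of the 26 targets, no filter gave 2 lower in irradiated KO and 6 higher with radiation in WT (beside 6 and 12), the replicate block 3 and 7, and quantile normalization 3 lower in irradiated KO. A mean of 5 TPM left 19 targets, of which 7 rose in WT.

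The replicate numbers did not pair the libraries: same-numbered libraries of different groups had correlations of -0.06 to 0.064 over 18 pairs, and 2 of 12 libraries correlated best with their own number. With the replicate block 378 genes were called for KO against WT with radiation, 315 for radiation in WT and 359 in KO, and TGFB1 kept its call in all comparisons (adjusted p = 0.0421, 0.0115, 0.00778 and 0.0161). Unknown read depth limits what can be said of TGFB2, BAMBI and SMAD7, which lay under 3.1 TPM.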
